A study of Mus musculus with 22 samples.

Results

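The genes described here encode 10 activity-induced synaptic effectors: Arc, Homer1, Nptx1, Nptx2, Nrn1, Plk2, Ptgs2, Inhba, Gpr3 and Pcsk1. They were taken by their gene symbol, and the 10 entries found were part of 24490 gene entries in each library's table. The libraries came from cortical neurons of Creb1-/- C57BL/6 mouse embryos at E16.5, used at 7 days in vitro. Creb1 encodes CREB, and all 22 libraries carry the label of its loss, which a value for the whole gene does not check. The neurons had been silenced for 12 to 16 hours with 1 µM TTX, which blocks sodium channels, and 100 µM D-AP5, which blocks NMDA receptors. A herpes simplex virus then delivered CREB or a control protein for 8 h or 4 h, and 55 mM KCl depolarized the neurons for 2 hours before RNA was taken. At 8 h there were 2 libraries each for S40A-S133A CREB, without a glycosylation or a phosphorylation site, and for S133A CREB, without the phosphorylation site. S40A CREB, without the glycosylation site, wild-type (WT) CREB and the GFP control had 4 libraries each at 8 h. At 4 h, S40A, WT and GFP had 2 each. Which promoter drove the viral proteins was not stated in these sources. Every library had been depolarized, so these values hold no undepolarized level against which induction could be measured. The study asked what the glycosylation and phosphorylation sites of CREB do to the RNA profile.

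CREB binds the cAMP response element (CRE) in promoters, and neuronal calcium entry leads to its phosphorylation at the serine that S133A lacks. The genes described here belong to the effector arm of the activity response: most of their products act at synapses or are secreted, rather than binding DNA. Arc drives removal of AMPA receptors from the synapse, and Homer1 ties group I metabotropic glutamate receptors to the postsynaptic scaffold, while its short activity-induced form uncouples them. Nptx1 and Nptx2 are secreted pentraxins that cluster AMPA receptors, and Nrn1 is a membrane-anchored protein that supports neurite and synapse growth. Plk2 is a kinase of homeostatic synaptic weakening, and Ptgs2 makes prostaglandin precursors. Inhba encodes the subunit of activin A, Gpr3 is a receptor that raises cAMP without added ligand, and Pcsk1 is a protease that cuts prohormones.

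Promoter sequence is shown because CREB is the factor supplied, and the CRE is the motif it is known to bind. RefSeq promoter windows (GRCm38.p6) were matched for 6 of the 10 genes, in 7 windows. The full CRE was searched as TGACGTCA and its half-site as TGACG or CGTCA on both strands, in the 250 bases before each transcript start, and each full site contains both half-sites. A full CRE lay 62 to 55 bases before the Plk2 start and 78 to 71 bases before the Pcsk1 start, and 1.55% of the 32851 mouse windows held one. Half-sites outside a full CRE were found 3 times before one Homer1 start, 2 times before Gpr3 and 1 time before Pcsk1, and 17.8% of all windows held at least 1 half-site. The windows of Ptgs2 and Inhba and the second Homer1 window held neither motif. These matches describe letters and do not show binding. The 4 stretches below end at the last base before the start, read along the gene's strand, with CRE letters and half-sites in capitals. They are chr13:110394944-110395043 (plus strand) for Plk2, chr13:75089757-75089856 (plus strand) for Pcsk1, chr13:93303657-93303756 (plus strand) for Homer1 and chr4:133212537-133212746 (minus strand) for Gpr3.
Plk2: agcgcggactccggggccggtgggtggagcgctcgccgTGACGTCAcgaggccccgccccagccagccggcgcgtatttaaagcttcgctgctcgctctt
Pcsk1: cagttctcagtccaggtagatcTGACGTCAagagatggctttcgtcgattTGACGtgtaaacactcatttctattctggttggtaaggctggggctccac
Homer1: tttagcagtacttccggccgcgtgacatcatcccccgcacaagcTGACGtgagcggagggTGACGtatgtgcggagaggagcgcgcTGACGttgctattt
Gpr3: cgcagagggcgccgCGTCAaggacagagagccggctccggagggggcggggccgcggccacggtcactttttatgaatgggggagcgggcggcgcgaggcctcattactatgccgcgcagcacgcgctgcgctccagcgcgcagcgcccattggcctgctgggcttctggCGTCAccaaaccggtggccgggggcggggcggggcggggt

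Numbers in the deposited file names placed the libraries in runs, whose meaning the labels do not give. Run B held replicate 2 and run A replicate 1 of the 4 h groups. The later 8 h set held runs D2 and D1, each with 1 library of all 5 viruses, and the earlier 8 h set held only S40A, WT and GFP, as replicates 2 (C2) and 1 (C1). In the earlier set the file numbers did not separate the replicates, so C2 and C1 are only replicate numbers. Virus differences in C2 or C1 set same-numbered libraries side by side, and another pairing could give other signs. Creb1 checked the virus labels: it stood at 555 to 2314 scaled FPKM in the 12 CREB libraries at 8 h against 9.69 to 14.9 in the 4 GFP libraries, and at 236 to 269 in the 4 CREB libraries at 4 h against 11.8 to 15.9 in the 2 GFP libraries. The tables of run A had been made differently, since they marked 347 entries each as having little data, against 0 elsewhere. The median of the ribosomal protein genes was 148 to 160 scaled FPKM in run A against 15.2 to 22.5 in the other libraries, except replicate 2 of GFP at 8 h at 167. That GFP library also held Gapdh at 132 scaled FPKM against 0.712 to 1.58 in the other 18 outside run A, and its highest correlation with another library was 0.859 against 0.916 to 0.943 for the other 21. Neuronal markers were present throughout, with the 6 pan-neuronal genes summing to 1293 to 1940 scaled FPKM, and every one of the 7 excitatory and 7 inhibitory markers was detected in each library. Markers of astrocytes summed to 19.5 to 129 scaled FPKM and those of microglia to 3.31 to 27.6, so those of other cell types were detected at lower levels. In bulk samples like these, fewer cells of a type and less RNA per cell cannot be told apart.

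The 10 genes spanned a wide range of RNA levels. FPKM is already divided by transcript length, so levels of different genes can be set side by side. Plk2 (chromosome 13, 110395044 to 110400843, mm10 here and below) was the highest, at 113 to 339 scaled FPKM over the 22 libraries with a median of 241. Homer1 (chromosome 13, 93304495 to 93405129) followed at 26.4 to 280 scaled FPKM with a median of 87.1. The table gives 1 value for the whole Homer1 gene, so its short form cannot be separated from the long ones. Arc (chromosome 15, 74669081 to 74672570) ran at 10.6 to 80.2 scaled FPKM with a median of 40.7, and Nptx2 (chromosome 5, 144545887 to 144557478) at 15.1 to 84.3 with a median of 39.5. Those neighbours overlapped through most of their range. Nrn1 (chromosome 13, 36725622 to 36734477) had a median of 25.6 scaled FPKM, and Pcsk1 (chromosome 13, 75089987 to 75132498) one of 11.9 with a range of 1.75 to 35.7. Nptx1 (chromosome 11, 119538719 to 119547820) was lower, at 5.12 to 14.2 scaled FPKM, and had the smallest ratio of highest to lowest value of the 10, at 2.78. Inhba (chromosome 13, 16014475 to 16027211) had a median of 5.91 scaled FPKM, Gpr3 (chromosome 4, 133209340 to 133212536) one of 2.82, and Ptgs2 (chromosome 1, 150100124 to 150108012) one of 0.792. With a mean of 0.943 scaled FPKM, Ptgs2 fell below the minimum of 1 FPKM used for testing, which 9 of the 10 genes passed. Of the genes, 5 lie on chromosome 13. Outside run A, the intervals in the tables gave an estimated median of 17650 fragments behind a Plk2 value and 82.9 behind a Ptgs2 value, so the low genes carry far more counting error.

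**Figure D1:**
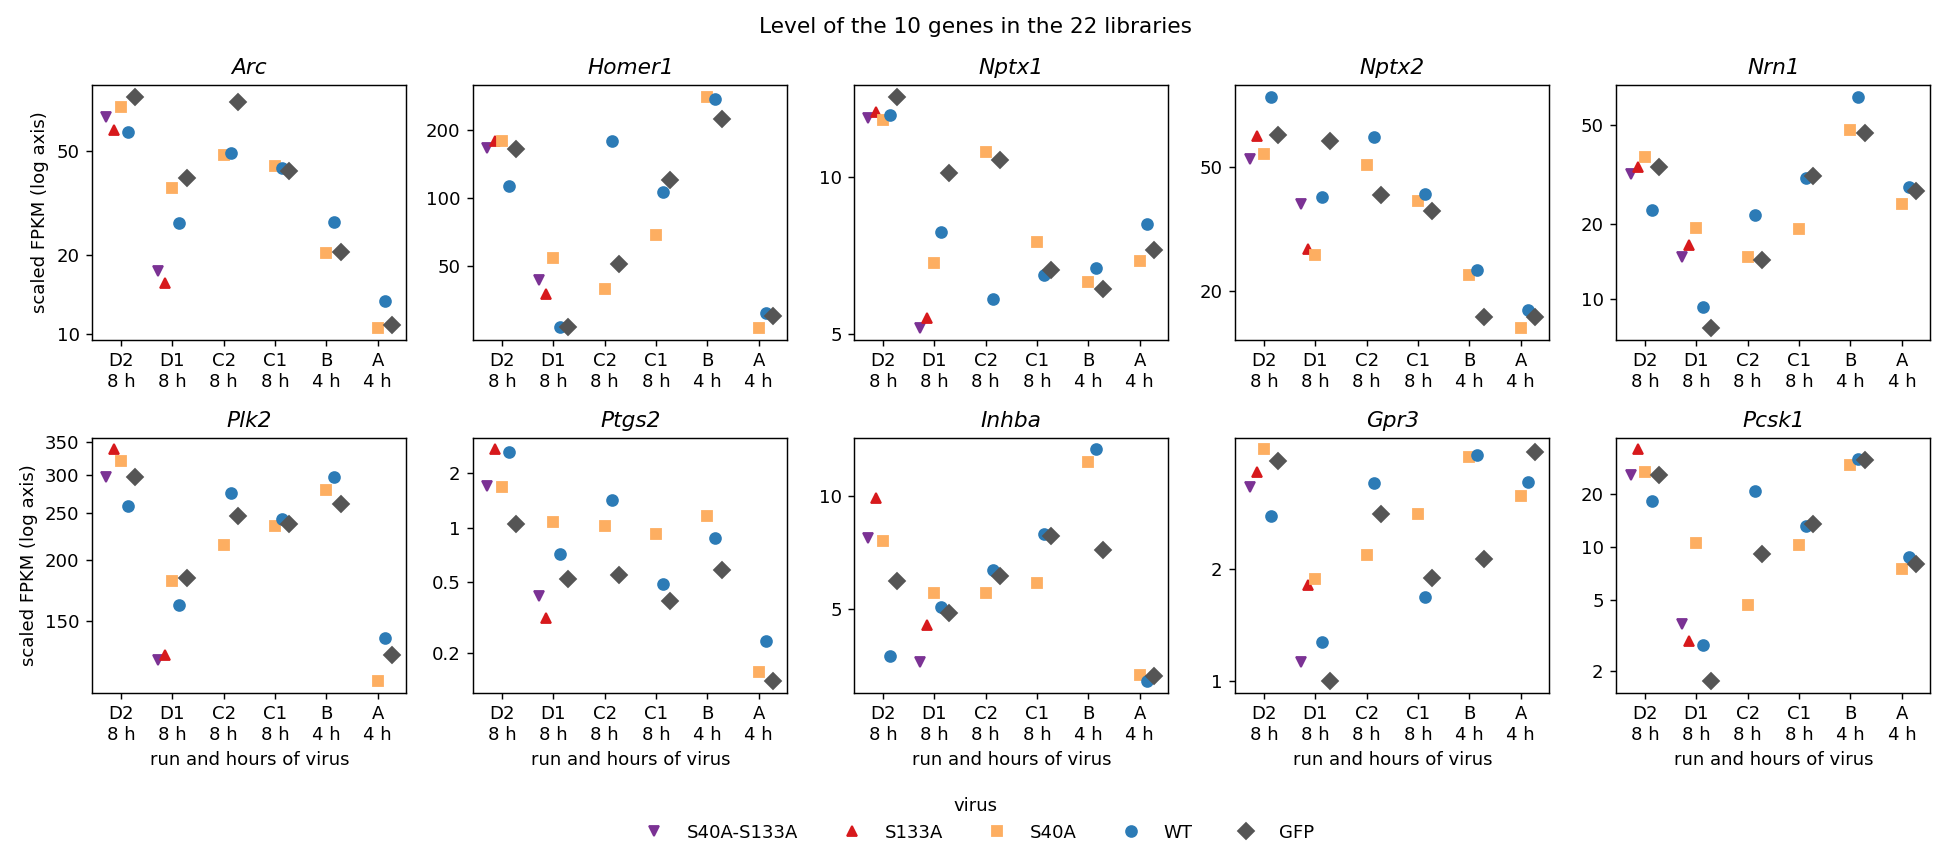
Scaled FPKM on a log axis (vertical) of each of the 10 genes in the 22 libraries, grouped by run and hours of virus (horizontal), with 1 point per library and its virus as colour and shape. Arc lies at 58.9 to 80.2 in run D2 and at 15.7 to 39.5 in run D1. D2 and D1 do not overlap for 7 of the 9 genes tested, Arc among them, against 22.5% of all genes tested.

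Supplying CREB to the neurons was not followed by a called change in any of these genes at 8 h. WT CREB was set against GFP in a fit of all 16 libraries at 8 h with a term for the library set, and a gene was called at a limma adjusted p under 0.05. None of the 9 genes tested was called, against 0.00827% of all 12097 genes tested, which was Creb1 alone. Arc stood at 58.9, 26.6, 48.8 and 42.8 scaled FPKM in the WT libraries of D2, D1, C2 and C1, against 80.2, 39.5, 76.5 and 42.0 in the GFP libraries. The WT values were lower in D2, D1 and C2, yet the groups overlapped (log2 difference -0.40, 95% interval -1.47 to 0.67). Without the GFP library that stood apart, the Arc difference was -0.24 on the log2 scale. Homer1 was at 113, 26.7, 179 and 106 scaled FPKM with WT, against 164, 26.8, 50.8 and 120 with GFP. Those values put WT above GFP only in C2, and the log2 difference was 0.27, against 0.04 without that GFP library and -0.08 without the WT library of C2. That WT library also differed from the rest in its markers: microglia markers summed to 27.6 scaled FPKM against 3.31 to 8.91 in the other 15 libraries at 8 h, and excitatory markers to 327 against 575 and 548 with S40A and GFP in C2. The part of these markers' differences in the Homer1 value was not tested. The pentraxin Nptx1 was lower with WT in D2, D1, C2 and C1 (log2 differences of -0.79 to -0.03). In the earlier set both WT values of Nptx1 lay below both GFP values. Over the fit Nptx1 differed by -0.32 with a 95% interval of -1.05 to 0.42. Ptgs2 in WT of C1 (0.486 scaled FPKM) lay below GFP of C2 (0.548). As paired by number, Ptgs2 was higher with WT in D2, D1, C2 and C1, by 0.10 to 0.82 on the log2 scale. It was tested only in a fit without the minimum, where its log2 difference was 0.44 (95% interval -0.32 to 1.19, limma adjusted p = 1).

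The mutant forms gave the same kind of picture against the same GFP libraries. None of the 9 genes was called with S40A-S133A (0.0165% of all genes called), with S133A (0.0248%) or with S40A (0.00827%). Among the 9 genes Arc had the largest differences with the forms lacking S133, at -0.69 on the log2 scale with S40A-S133A (95% interval -2.07 to 0.69) and -0.85 with S133A (-2.23 to 0.53), and it was at -0.22 with S40A, or -0.06 without the GFP library that stood apart. Ptgs2 was higher with S40A than with GFP in D2, D1, C2 and C1, by 0.38 to 0.47 on the log2 scale. The fit without a minimum gave 0.42 (95% interval -0.33 to 1.18, limma adjusted p = 0.92). In run D1 Arc stood at 17.5 scaled FPKM with S40A-S133A and 15.7 with S133A, against 39.5 with GFP. In run D2 the same groups were closer, at 67.0 and 59.7 against 80.2 scaled FPKM. The 7 excitatory neuron markers also summed to less in those 2 mutant libraries of D1, at 353 scaled FPKM with S40A-S133A and 377 with S133A, against 640 with GFP, and their part in the Arc values was not tested. That sum weighs Nrgn most, as given above. For Pcsk1, which has a full CRE in the promoter printed above, the intervals were wide. With S133A its log2 difference from GFP was 0.31 (95% interval -2.34 to 2.96). The fit held no term for the run, so the gap between D2 and D1 adds to that width. Within D2 and D1 this difference was 0.48 and 0.53. Plk2, with the other full CRE, differed by -0.25 with S40A-S133A (95% interval -1.22 to 0.71), by -0.14 with S133A and by -0.03 with S40A. The 4 contrasts share their GFP libraries, so their likeness is partly built in. Missing the threshold does not show that the forms act alike, as the intervals show.

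**Figure D2:**
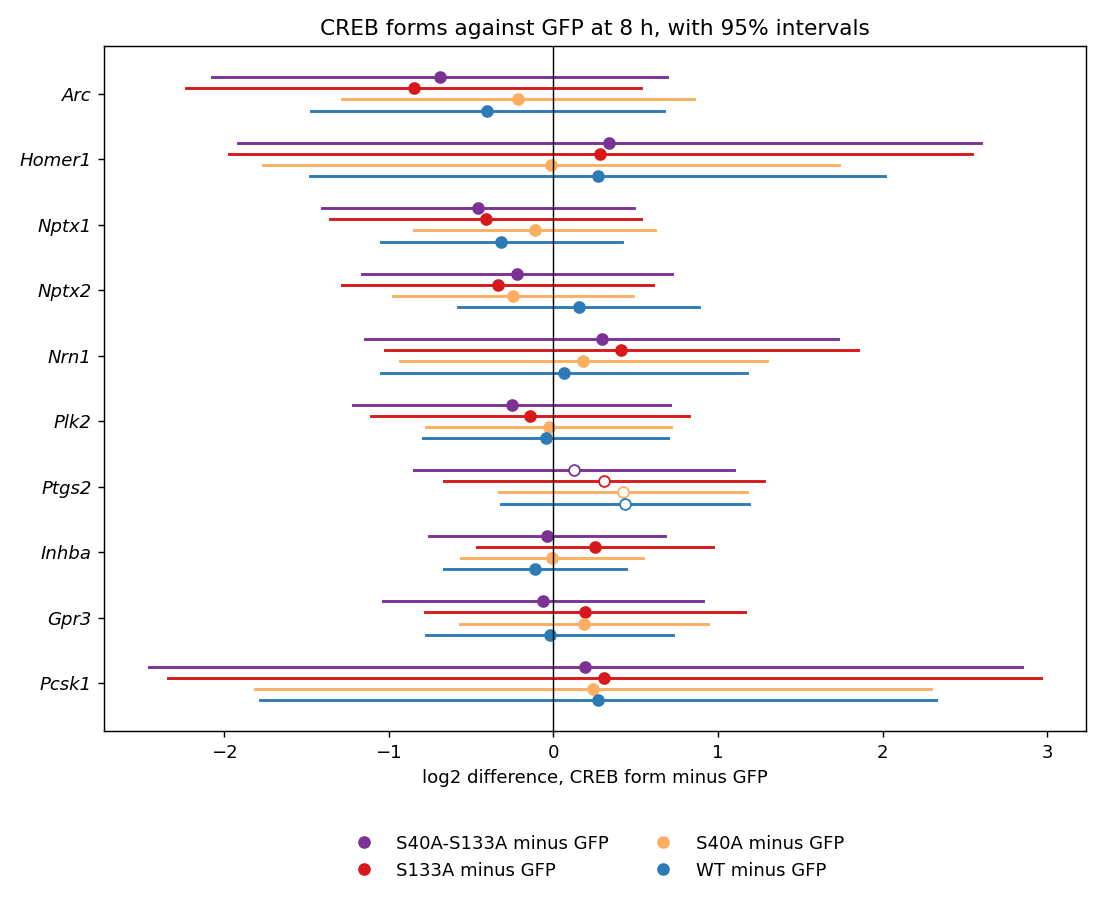
Log2 difference between each CREB form and GFP at 8 h (horizontal) for the 10 genes (vertical), with points for the limma estimate and bars for its 95% interval; open points mark Ptgs2, taken from the fit without a minimum. Every interval covers 0, and those of Homer1 and Pcsk1 are the widest.

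The glycosylation site was examined by setting S40A against WT CREB at 8 h. Of the 9 genes tested 0 were called, 0% of all genes tested were called, and 514 genes passed an unadjusted p under 0.05, with none of these 9 among them. Nptx2 was the one gene of the 10 with the same sign in D2, D1, C2 and C1, with C2 and C1 paired by replicate number. It stood at 55.2, 26.0, 50.7 and 38.8 scaled FPKM with S40A in D2, D1, C2 and C1, against 84.3, 40.2, 62.5 and 41.0 with WT. The ranges overlapped, and the fitted log2 difference was -0.40 (95% interval -1.13 to 0.33). Homer1 stood at 178, 54.3, 39.5 and 68.1 scaled FPKM with S40A, against 113, 26.7, 179 and 106 with WT. S40A was thus above WT in both runs of the later set, with log2 differences of 0.65 and 1.00 in D2 and D1. It was below WT for both replicate numbers of the earlier set, at -2.15 and -0.63 in C2 and C1. Pcsk1 divided the same way, at 0.52 and 1.61 on the log2 scale in D2 and D1 and -1.93 and -0.33 in C2 and C1. So did Nrn1, at 0.67 and 0.99 in the later runs and -0.52 and -0.66 in the earlier replicates. Without the WT library of C2, the fitted S40A difference from WT was 0.06 for Homer1 and 0.25 for Pcsk1, against -0.28 and -0.03 with it. The difference between the sets was itself tested, a comparison chosen after an earlier analysis of these data showed opposite signs for other gene lists. It called 0 of the 9 genes, against 0.0413% of all genes. Homer1 gave a log2 difference between sets of 2.22 with a limma adjusted p of 0.74, and Inhba was the one gene of the 9 under an unadjusted p of 0.05 (0.76, SE 0.28, limma adjusted p = 0.72).

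**Figure D3:**
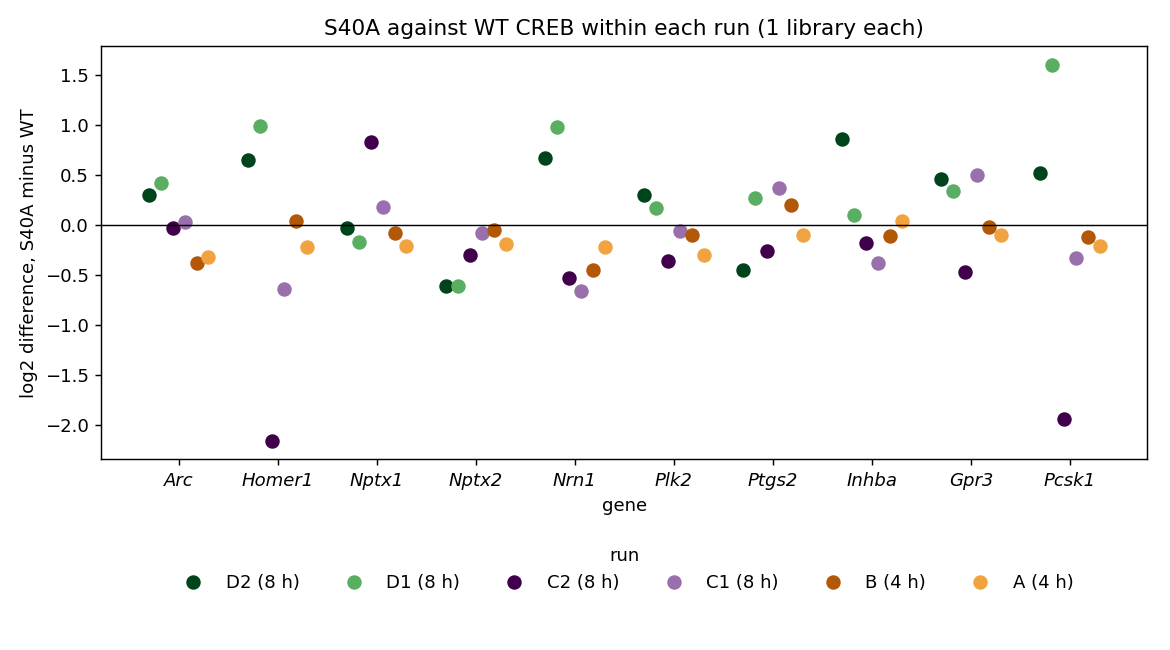
Log2 difference between S40A and WT CREB (vertical) for the 10 genes (horizontal), with 1 library of each virus behind every point. Libraries are paired within runs D2, D1, B and A, and by replicate number alone in C2 and C1. Homer1, Pcsk1 and Nrn1 lie above 0 in D2 and D1 and below it in C2 and C1, while Nptx2 is below 0 throughout.

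The phosphorylation site was examined by setting S40A-S133A and S133A against WT CREB. None of the 9 genes was called for S40A-S133A (0.00827% of all genes called) or S133A (0.0165%), nor when both forms without S133 were pooled and set against both forms with it (0.0248%). Within runs D2 and D1, Homer1 was higher than with WT in both, by 0.56 and 0.68 on the log2 scale with S40A-S133A and by 0.66 and 0.47 with S133A. The Homer1 difference in the fit of all 16 libraries was 0.07 for S40A-S133A (95% interval -2.19 to 2.33) and 0.01 for S133A (-2.24 to 2.27). The fit takes the WT libraries of the earlier set too, where Homer1 was high in C2. Nrn1, the membrane-anchored growth protein, was also above WT in both runs, at 31.6 and 14.8 scaled FPKM with S40A-S133A and 33.8 and 16.4 with S133A, against 22.8 and 9.26 with WT. Nptx2 was below WT in both, at 53.3 and 38.1 scaled FPKM with S40A-S133A and 62.8 and 27.3 with S133A, against 84.3 and 40.2 with WT. For Homer1 and Nrn1 the 2 runs lay farther apart than these viruses did within a run. S40A, which keeps S133, also lay above WT in D2 and D1 for Homer1 (log2 differences of 0.65 and 1.00) and Nrn1 (0.67 and 0.99). For Nptx2 it lay below WT (-0.60 and -0.61). These directions were thus not particular to the forms without S133, and all forms share the WT libraries.

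At 4 h, too, no call was made. None of the 9 genes was called for S40A against GFP (0.0909% of all genes called), for WT against GFP (0.0992%) or for S40A against WT (0.0909%). WT lay above GFP in 9 of 9 fitted differences, with a median of 0.24 on the log2 scale against 0.00 for all genes. S40A lay below WT in 9 of 9, with a median of -0.14. Of all genes tested, 50.1% lay above GFP with WT, and 47.4% lay above WT with S40A. Within runs, WT lay above GFP for 9 of 9 genes in run B and 7 of 9 in run A, with medians of 0.37 and 0.08, and S40A lay above WT for 1 gene in each run. The 3 contrasts use the same 6 libraries, so these counts are not independent of each other. Arc stood at 20.3 and 10.6 scaled FPKM with S40A in runs B and A, at 26.8 and 13.4 with WT and at 20.6 and 10.9 with GFP. Its WT value was the highest of the 3 in both runs, by 0.37 and 0.28 over GFP on the log2 scale, and the groups still overlapped across runs. Inhba stood at 12.3 and 3.34 scaled FPKM with S40A, 13.4 and 3.21 with WT and 7.18 and 3.31 with GFP, with the values apart in run B and close together in run A. Nptx2 stood at 23.2 and 17.4 scaled FPKM with WT in B and A, against 16.4 and 16.4 with GFP, so those ranges did not meet, as for 9.17% of all genes tested. Its log2 difference was 0.28 with a limma adjusted p of 1. For Homer1 the 95% interval of WT minus GFP reached from -4.79 to 5.12 on the log2 scale, since run B lay far above run A, while within B and A the differences were 0.29 and 0.04.

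Levels at 8 h were set against those at 4 h over S40A, WT and GFP. Of the 9 genes, 2 were called, both higher at 8 h, while 42.7% of all genes were called. Arc rose by 1.54 on the log2 scale (SE 0.34, limma adjusted p = 0.0020), with 26.6 to 80.2 scaled FPKM in the 12 libraries at 8 h against 10.6 to 26.8 in the 6 at 4 h. Nptx2 rose by 1.34 (SE 0.22, limma adjusted p = 2e-04), with 26.0 to 84.3 scaled FPKM at 8 h against 15.1 to 23.2 at 4 h and no overlap. Arc overlapped only where the lowest 8 h library, WT in D1, met the highest 4 h library, WT in B. Nrn1 had a log2 difference of -0.88 (limma adjusted p = 0.055), and Homer1 one of -0.18 (0.85). Time and library set cannot be told apart here, because no run holds libraries of both times. Without run A, Arc was no longer called (1.09, limma adjusted p = 0.071), while Nrn1 at -1.36 (0.035) and Inhba at -0.75 (0.023) were.

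The clearest differences in these genes lay between runs that carried the same viruses. Run D2 was set against run D1 over 5 pairs of libraries matched by virus. Of the 9 genes, 8 were called, all of them higher in D2, against 29.8% of all genes called in either direction. Over all genes the median log2 difference was 0.01 and the calls divided into 1835 higher and 1770 lower. The protease Pcsk1 rose most, to 25.6, 35.7, 26.7, 18.3 and 25.4 scaled FPKM in the D2 libraries of S40A-S133A, S133A, S40A, WT and GFP, against 3.66, 2.96, 10.6, 2.81 and 1.75 in the D1 libraries. The D2 values all lay above the D1 values, by 2.52 on the log2 scale (SE 0.32, limma adjusted p = 0.0069). Homer1 stood at 167, 178, 178, 113 and 164 scaled FPKM in D2, against 43.4, 37.4, 54.3, 26.7 and 26.8 in D1. It rose by 2.09 on the log2 scale (SE 0.13, limma adjusted p = 0.0021). The ratio between runs was widest with GFP for Pcsk1 (14.5), Homer1 (6.13), Nrn1 (4.42) and Gpr3 (3.91). It was narrowest with GFP for Nptx1 (1.4) and Nptx2 (1.045). Arc rose by 1.37 (SE 0.18, adjusted p = 0.0073), with no overlap between the runs. In all, 7 of the 9 genes did not overlap between D2 and D1, against 22.5% of all genes tested. Nrn1 rose by 1.23, Plk2 by 0.97, Gpr3 by 0.93 and Nptx1 by 0.86 on the log2 scale, with limma adjusted p of 0.00895, 0.0083, 0.0049 and 0.010, and each was higher in D2 in 5 of 5 pairs without overlap. Nptx2 rose by 0.76 (limma adjusted p = 0.033), but its runs overlapped at 53.3 to 84.3 against 26.0 to 60.6 scaled FPKM. This call was lost in fits without the library of any one CREB form in either run (adjusted p = 0.069 to 0.10). Inhba was higher in 4 of 5 pairs and was not called (0.44, limma adjusted p = 0.17), with WT going the other way at 3.74 scaled FPKM in D2 against 5.05 in D1. Ptgs2, in the fit without a minimum, gave 0.86 with a limma adjusted p of 0.046.

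Other measures also moved between D2 and D1. Creb1 was 1.32 higher in D2 on the log2 scale (limma adjusted p = 0.0498), from the 4 CREB pairs, at 1860 to 2314 scaled FPKM in D2 against 555 to 745 in D1, while with GFP it was 11.3 in D2 against 14.9 in D1. Of the marker lists, 2 did not overlap between the runs: the 7 genes of dividing progenitors summed to 58.1 to 77.7 scaled FPKM in D2 against 28.3 to 55.0 in D1, and the 6 of vascular cells and fibroblasts to 3.51 to 6.52 against 0.656 to 2.10. All 7 progenitor genes and 1 of the 6 vascular genes reached the minimum for testing, and the vascular marker Cdh5 was at 0 in 8 of the 22 libraries and Cldn5 in 2. Over the 22 libraries Sox2 had the highest median of the progenitor genes, 41.9 scaled FPKM. Mki67, Top2a and Ccnb1 had medians of 2.32, 3.13 and 0.447, so the progenitor sum weighs Sox2 most. The part of these differences between D2 and D1 in the results for Arc, Homer1, Pcsk1 and the rest was not tested. Excitatory markers, at 577 to 732 scaled FPKM in D2 against 353 to 683 in D1, overlapped. Pan-neuronal markers summed to less in D2 in 5 of 5 pairs, at 1580 to 1682 scaled FPKM in D2 against 1669 to 1940 in D1.

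**Figure D4:**
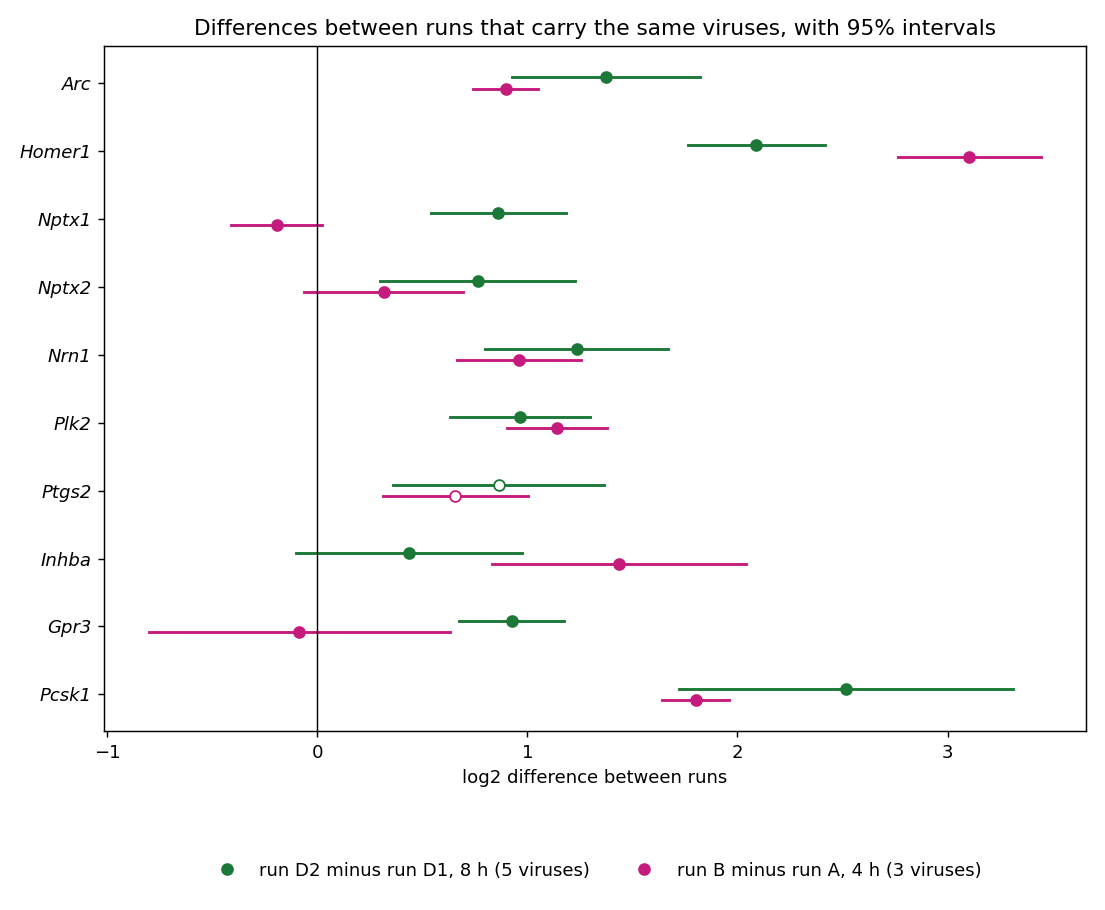
Log2 difference (horizontal) between runs D2 and D1 at 8 h, over 5 virus pairs, and between runs B and A at 4 h, over 3 pairs, for the 10 genes (vertical); points are limma estimates, bars 95% intervals, and open points mark Ptgs2 from the fit without a minimum. Homer1 and Pcsk1 lie farthest to the right in both, and Nptx1 and Gpr3 are above 0 only in the comparison of D2 with D1.

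Run B against run A, at 4 h, gave 6 of 9 called, all higher in B, against 41.1% of all genes called in either direction. Homer1 stood at 280, 273 and 223 scaled FPKM in the S40A, WT and GFP libraries of run B, against 26.4, 30.9 and 30.0 in those of run A. That was a log2 difference of 3.10 (SE 0.12, limma adjusted p = 0.0017) and a ratio of 7.44 to 10.6 within each virus. Pcsk1 stood at 29.2, 31.6 and 31.0 scaled FPKM in run B, against 7.49, 8.77 and 7.99 in run A, and rose by 1.80 on the log2 scale (SE 0.05, limma adjusted p = 0.0011). Inhba rose by 1.44, Plk2 by 1.14, Nrn1 by 0.96 and Arc by 0.90 on the log2 scale (limma adjusted p of 0.018, 0.0063, 0.011 and 0.0046). The pentraxins and Gpr3 were not called: Nptx1 was lower in run B in 3 of 3 pairs (log2 difference -0.19, limma adjusted p = 0.11), Nptx2 gave 0.32 (0.13) and Gpr3 -0.09 (0.80). Run A's tables differ in their making, as given above, and what that adds to these differences was not tested. The calls of Arc, Nrn1, Plk2 and Inhba were lost in fits without a WT or an S40A library of either run, leaving 2 calls. Excitatory markers summed to 286 to 320 scaled FPKM in run B against 245 to 282 in run A, pan-neuronal markers to 1644 to 1774 against 1293 to 1480, and those of dividing progenitors to 93.2 to 95.9 against 105 to 182.

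Replicates 2 and 1 of the earlier 8 h set were compared too, but their numbers separate no known run. The comparison therefore cannot show how far runs of that set differed. Comparing C2 with C1 called 0 of the 9 genes, against 0.0331% of all genes, with Nptx2 and Nrn1 under an unadjusted p of 0.05. As numbered, Nptx2 was higher in C2 with 3 of 3 viruses (log2 difference 0.38) and Nrn1 lower with 3 of 3 (-0.63). Homer1 was uneven within these replicates, at 39.5, 179 and 50.8 scaled FPKM with S40A, WT and GFP in C2 against 68.1, 106 and 120 in C1.

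Most of the variance of these genes lay between runs. No run holds both times, and only D2 and D1 hold the forms without S133, so the share between runs includes differences between the times. With C2 and C1 counted as runs, the 6 runs took up 90.4% of the log2 variance over the 22 libraries for Plk2. They took up 88.6% for Arc and 86.1% for Homer1, down to 73.7% for Nptx1 and 72.2% for Inhba. The median over all genes tested was 69.7%, so the set lay above the middle of the table. What remained within runs still differed between genes, with an SD of 0.18 on the log2 scale for Plk2 and of 0.55 for Pcsk1, against a median of 0.15 for all genes.

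The genes did not vary as one block. Pearson correlations of log2 values are given as description over the 22 libraries, which are not independent points since they share runs. Of the 45 pairs of genes, 41 had a positive correlation, with a median of 0.50. After the mean of each run was removed, again with C2 and C1 counted as runs, 31 of 45 were positive and the median was 0.23. Homer1 and Pcsk1 went together most closely, at 0.91 over all libraries and 0.85 within runs, and Nrn1 joined them, at 0.77 with Homer1 and 0.73 with Pcsk1 within runs. Arc formed another pair with Plk2, at 0.74 within runs, and reached 0.68 with Nptx1. Homer1 and Nptx1 ran against each other within runs, at -0.74. In replicate C2, for example, WT had the highest Homer1, 179 scaled FPKM, and the lowest Nptx1, 5.82. That is the WT library whose markers differed from the rest, and no correlation was computed without it. Nptx2 and Nrn1 were at -0.30 over all libraries: Nrn1 was highest in run B, at 46.5 to 64.9 scaled FPKM, where Nptx2 was at 16.4 to 23.2. Plk2 followed the mean of the other 9 most closely, at 0.94, and Nptx2 least, at 0.40.

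Genes outside the set that followed its mean most closely over the 22 libraries were Irs2, an insulin receptor substrate, with a correlation of 0.97, the neuronal glucose transporter Slc2a3 (0.96), the lactate transporter Slc16a1 (0.96) and Nfkbiz, a nuclear IκB protein (0.96). The potassium channel subunit Kcnf1 (0.95), the somatostatin receptor Sstr2 (0.95), the collagen Col10a1 (0.94) and Fam46a (0.94) came next. Slc2a3 ranged over 31.2 to 127 scaled FPKM and Irs2 over 17.7 to 99.3. Slc2a3 was also at 0.92 within runs, the highest of these 8, and Nfkbiz at 0.60, the lowest.

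Immediate early transcription factors, other activity-regulated effectors and the partners and relatives of these proteins were described beside them. No gene of the 3 lists was called in any of the 12 comparisons of viruses. For WT against GFP at 4 h, 21 of 21 immediate early factors and 25 of 28 other effectors lay higher (log2 medians 0.35, 0.21). For S40A against WT at 4 h, 19 of 21 and 25 of 28 lay lower (-0.51, -0.16). Later minus earlier set, the S40A difference from WT at 8 h was above 0 for 20 of 21 and 25 of 28. Its medians were 1.33 and 1.19, beside 0.44 for the 9 genes, and 48.5% of all genes tested lay above 0. That comparison was chosen because an earlier analysis of these data showed opposite signs for other gene lists. Its counts are therefore not independent evidence. Of the 42 partners 20, 10 and 17 lay higher in these 3 comparisons. For S40A against WT CREB at 8 h the smallest p among the partners belonged to Scg5, the chaperone of the prohormone protease PC2, and to Pcsk2, which encodes PC2, with log2 differences of 0.29 (SE 0.08) and 0.38 (SE 0.13) and a limma adjusted p of 1 each. Between D2 and D1, where 29.8% of all genes were called, 18 of 21 immediate early factors were called higher and 0 lower, with a median log2 difference of 1.19 beside 0.97 for the 9 genes. Egr4 rose by 3.02 and Fosl2 by 2.26, with Maff, Nr4a2, Csrnp1 and Atf3 at 1.84, 1.73, 1.61 and 1.41 on the log2 scale. Of 28 other effectors 22 were called higher and 0 lower, among them the peptide precursor gene Adcyap1 (2.25), the pseudokinase gene Trib1 (2.24), the kinase gene Pim1 (2.15) and the growth factor gene Bdnf (1.94), followed by Crh (1.68) and Fbxo33 (1.62). The 42 partners and relatives, which include the receptors and scaffolds that the products act on, were mixed, with 6 called higher, 4 lower and a median of 0.06. Among them the prostaglandin receptor gene Ptger4 rose by 0.87, the kinase gene Plk3 by 0.39 and the AMPA receptor subunit gene Gria2 fell by 0.42 on the log2 scale. Pam, which amidates peptides, rose by 0.38, Ptges3 rose by 0.27 and Smad3, an activin signal carrier, fell by 0.27.

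Between B and A, where 41.1% of all genes were called, 19 of 21 immediate early factors were called higher and 0 lower (median log2 difference 1.86), led by Egr4 at 3.69, Egr3 at 3.02, Egr2 at 2.88, Fosb at 2.86, Fosl2 at 2.56 and Nr4a2 at 2.47. Other effectors divided into 18 called higher and 5 lower of 28, with Trib1 at 2.92, Btg2 at 2.19, Tiparp at 2.16, Fbxo33 at 1.85 and Pim1 at 1.69, and Rasgrp1 at -2.13. Of the 42 partners and relatives 20 were called higher and 3 lower. The pentraxin receptor gene Nptxr rose by 1.18 in run B while Nptx1 and Nptx2 themselves were not called, the activin antagonist gene Fst rose by 1.23, and the gene of the Homer1 binding partner Grm5 by 0.94 on the log2 scale. Adcy1, an adenylyl cyclase gene, was at 1.12, Sh3gl3 at 0.88 and Ptges3 at -1.25. Between 8 h and 4 h, where 42.7% of all genes were called, immediate early factors had 1 called higher (Atf3, 1.90) and 1 lower (Jund, -0.62), other effectors 4 and 7, and the partners 17 and 11. Ptger4 at 1.62, Fst at 1.15 and the receptor gene Gpr12, a relative of Gpr3, at 1.14 led the partners that were higher at 8 h, with Gpr6, another relative, at 0.83, while Homer3 was at -0.99 and Ptges3 at -0.89. The called effectors with the largest differences were Gadd45b at 1.76 and Synpo at 1.43, against Rgs4 at -1.73, Dusp4 at -1.18, Sorcs3 at -0.89 and Vgf at -0.79.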

How the data were processed

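RNA was measured in 22 libraries of depolarized Creb1-/- mouse cortical neurons. For each library the authors deposited a table of FPKM values, which are divided by transcript length and library size. CASAVA 1.7, Bowtie 0.12.2, Cufflinks and the builds mm8 and mm10 are named in the submitters' processing notes. Gene positions were checked against GENCODE M21 (GRCm38, equal to mm10): 97.6% of the 23104 entries with a matching symbol overlapped that gene. How reads with several matches, isoforms or strand were handled was not stated in these sources.

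FPKM values were scaled by median-of-ratios factors from 11517 genes above 0 everywhere, 1 FPKM was added and log2 taken, which understates changes of low genes. A mean of 1 FPKM or more and no failed estimate left 12097 genes. Tests used limma 3.58.1 in R 4.3.3 (mean-variance trend, two-sided, Benjamini-Hochberg over all 12097), called at adjusted p under 0.05. One fit held all 16 libraries at 8 h with a term for the library set and none for the run. One held the 6 at 4 h, one all 22 for the times, and one each the matched pairs of runs. Simulated data had 100 randomly picked genes changed by 1 and another 100 by 2 on the log2 scale. Of those changed by 1, 74 were given back for WT against GFP at 8 h and 86 for D2 against D1. There were 10 and 8 false calls among the genes left unchanged. The within-run SD on the log2 scale was 0.15 at the median of all genes, against 0.18 to 0.55 for the 10. These counts therefore do not give the recovery for the 10 genes. Python 3.11.15 with pandas 2.3.3, numpy 2.4.6 and matplotlib 3.10.9 made the summaries and figures.

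Total read counts are not in the tables. In the 19 libraries outside run A the Cufflinks intervals gave whole fragment numbers (within 0.05) for 71.9% to 83.0% of low single-start entries, and in run A for 9.09% to 10.2%, so fragments were estimated only outside run A. No 2 libraries held identical values. Nothing in the labels says whether replicates came from different cultures, and p-values therefore cover a spread that may be technical.

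The 10 genes and the gene lists were chosen with earlier results of these data known. The rule for names took all 10 genes, Creb1, the 8 genes most like their mean and, from each other list, up to 6 called genes by size or, with none called, those with the smallest p, of which a part is given for the comparisons of viruses. No set test was made. Alternatives were the pseudocount, the filter, the scaling, robust moderation, the library set term, the replicate block and leaving out each library, with run A left out as a choice made after seeing the data.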

Additional observations from a re-analysis of the deposited data

How the results depend on the processing

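Over all alternatives run, each of the 12 virus comparisons kept 0 calls among the 9 genes. Of 2808 recomputed gene differences, 0 changed sign while called, 243 changed sign without a call, 27 lost a call and 16 gained one. Between D2 and D1 the count of calls was 7 or 8 of the 9. Between B and A it ran from 2 to 7 when 1 library was left out, with 2 in the fits without WT or S40A replicate 1 or 2 at 4 h, which leave 2 matched pairs. The count of all genes called was less steady, at 1613 to 5506 for D2 against D1 (3605 as reported, low in each fit without 1 CREB library of either run, highest with FPKM as deposited), at 459 to 6054 for B against A (4977 as reported, 459 to 643 in those same 4 fits), at 4493 to 7446 for the times (5160 as reported) and at 0 to 34 in the virus comparisons (0 to 12 as reported). With the replicate block, 6 of the 9 genes were called between the times against 2 without it, Nptx1, Nrn1, Plk2 and Gpr3 being added, and the virus comparisons kept 0. Same-numbered libraries deviated together in 3 pairs of A and B (correlations 0.546 to 0.563) and 10 of D1 and D2 (0.067 to 0.396) but not in 3 of C1 and C2 (-0.041 to 0.050), so the numbers were not taken to pair the samples in general. Left without an adjusted p under 0.05 by 1 alternative or more were Nptx2 between D2 and D1, also with no filter on low values (adjusted p = 0.061) and with FPKM as deposited (0.054), Arc between the times, and Arc, Nrn1, Plk2 and Inhba between B and A. The depth limits Ptgs2 and Gpr3 most, whose values outside run A rested on an estimated 31.9 to 225 and 49.3 to 207 fragments.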
